A study of Mus musculus with 7 samples.

Results

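Genes of the cell cycle and of proliferation were examined in macrophages taken from mouse brain tumours. The members were a list of 42 genes, matched by symbol to the 25571 rows of the deposited table. All 42 were found, and all 42 passed the filter on low counts that left 15822 genes for testing. They were divided by role into 9 genes of G1 control, 13 genes of DNA replication (S phase) and 20 genes of mitosis (G2/M).

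The cells were CD11b+ tumour-associated macrophages, sorted by FACS at the end of the experiment from orthotopic T387 glioblastoma xenografts. T387 is a human glioblastoma model, and the host NSG mice lack lymphocytes, so all groups came from immunodeficient animals carrying a human tumour. Both arms were dosed 4 times a week for 3 weeks, from day 7 after the tumour was implanted. The treated arm (4 libraries) received Pracinostat, an inhibitor of zinc-dependent histone deacetylases, by gavage at 30 mg/kg, and the control arm (3 libraries) received the solvent with DMSO. The labels also state 3 mg/kg for the drug as prepared. The labels call the libraries of each arm biological replicates, but name neither ages nor the animal behind each library.

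Cells enter the cycle when cyclin D with CDK4 or CDK6, and then cyclin E with CDK2, inactivate the retinoblastoma protein and release E2F, which switches on the genes of replication. Licensing factors load the MCM helicase on origins, nucleotides are made and DNA is copied. The DREAM complex and its partners control the genes of mitosis, whose products later condense, align and part the chromosomes. Microglia and other brain macrophages are known to renew by local division.

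No member passed the test between Pracinostat and DMSO. Of the 42 members, 0 had an edgeR adjusted p under 0.05, against 0% of all genes tested. DESeq2 also called 0 members, against 0.171% of all genes. At an unadjusted p under 0.05 there was 1 member on the higher side, the licensing factor Cdc6, where all genes had 2.81%. On the lower side there were 0 members, and all genes had 1.37%. Cdc6 was also the only member whose groups did not overlap: 1 of 42 members was higher throughout (3.51% of all genes) and 0 of 42 were lower throughout (2.59% of all genes).

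Fold changes were positive for 30 of the 42 members (71.4%), and their median was 0.13 on the log2 scale. Over all genes tested 52.3% were positive, with a median of 0.02. This balance rested on 1 library. Without Pracinostat replicate 3, 7 of 42 were positive and 35 were negative, with a median of -0.28, while 49.3% of all genes then tested were negative and their median was 0.01. In that fit 1 member, again Cdc6, had an unadjusted p under 0.05 on the higher side (2.63% of all genes), and 0 members did on the lower side (1.47%). With DMSO replicate 3 left out instead, 34 of 42 members were positive.

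Scores per library show the same library apart. A score is the mean over a group's members of log2 CPM (counts scaled to the library total, TMM-adjusted) minus each gene's mean over the 7 libraries, so 0 is the average library and a score of 1 is a doubling. The replication score was -0.11, -0.45 and 0.30 in DMSO replicates 1 to 3, and 0.08, -0.29, 1.03 and -0.56 in Pracinostat replicates 1 to 4. The mitotic score was -0.13, -0.12 and 0.18 with DMSO, and -0.09, -0.18, 0.72 and -0.39 with Pracinostat. The G1 score was -0.13, -0.14 and 0.10 with DMSO, and 0.10, -0.47, 0.70 and -0.16 with Pracinostat. In each of the 3 groups Pracinostat replicate 3 scored highest and DMSO replicate 3 was second. The remaining Pracinostat libraries lay within or below the DMSO range, and the groups overlapped in every score.

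For replication the mean score was -0.09 ± 0.37 in the control libraries (SD, n = 3) and 0.06 ± 0.70 in the treated ones (SD, n = 4), a difference of 0.15. The mitotic score averaged -0.02 ± 0.17 (SD, n = 3) and 0.02 ± 0.49 (SD, n = 4), a difference of 0.04. The G1 score averaged -0.06 ± 0.13 (SD, n = 3) and 0.04 ± 0.50 (SD, n = 4), a difference of 0.10. All 3 differences were smaller than the spread among the Pracinostat libraries. They turned negative when Pracinostat replicate 3 was left out, at -0.17 for replication, -0.20 for mitosis and -0.12 for G1 control. DMSO replicate 3, second highest in each score, stayed in the control mean for these differences. No p is given for these scores, because the members were chosen with results of these data known. In bulk RNA, fewer cycling cells and less cell cycle RNA in each cell cannot be told apart.

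**Figure D1:**
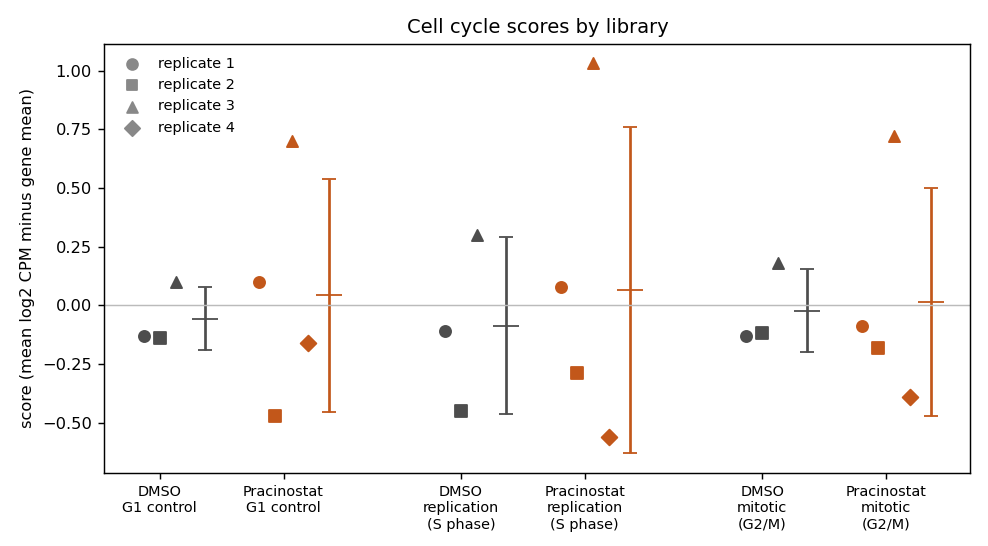
Cell cycle scores (vertical axis, mean log2 CPM minus the gene mean) of the 3 DMSO (grey) and 4 Pracinostat (orange) libraries for the 3 role groups. Symbols give the replicate number, and the dash with bars beside the points is the mean ± SD. Pracinostat replicate 3 (orange triangle) lies highest in all 3 groups, at 0.70, 1.03 and 0.72.

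Replication and mitosis did not part between the arms. The replication score minus the mitotic score was 0.01, -0.33 and 0.12 with DMSO, and 0.17, -0.11, 0.31 and -0.17 with Pracinostat. The means were -0.06 ± 0.24 (SD, n = 3) and 0.05 ± 0.23 (SD, n = 4), so the difference of 0.11 was smaller than either SD. The spread over libraries was wider for replication than for mitosis, from -0.56 to 1.03 against -0.39 to 0.72.

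Pracinostat replicate 3 held the highest CPM for 37 of the 42 members, whereas it held the highest for 16.9% of all genes tested. The exceptions were Ccnd2, Ccnd3, Cdt1, Ube2c and Ccnb2. Its level was a median of 1.95 times the mean of the other 6 libraries over the 42 members, against 0.973 times over all genes. By role the median was 1.61 for G1 control, 2.34 for replication and 1.79 for mitosis. The single ratios ran from 0.551 for Ccnd2 to 4.81 for Ccne2, and 39 of 42 were above 1. At the other end, Pracinostat replicate 4 had the lowest CPM for 18 of 42 members, against 11.8% of all genes.

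**Figure D2:**
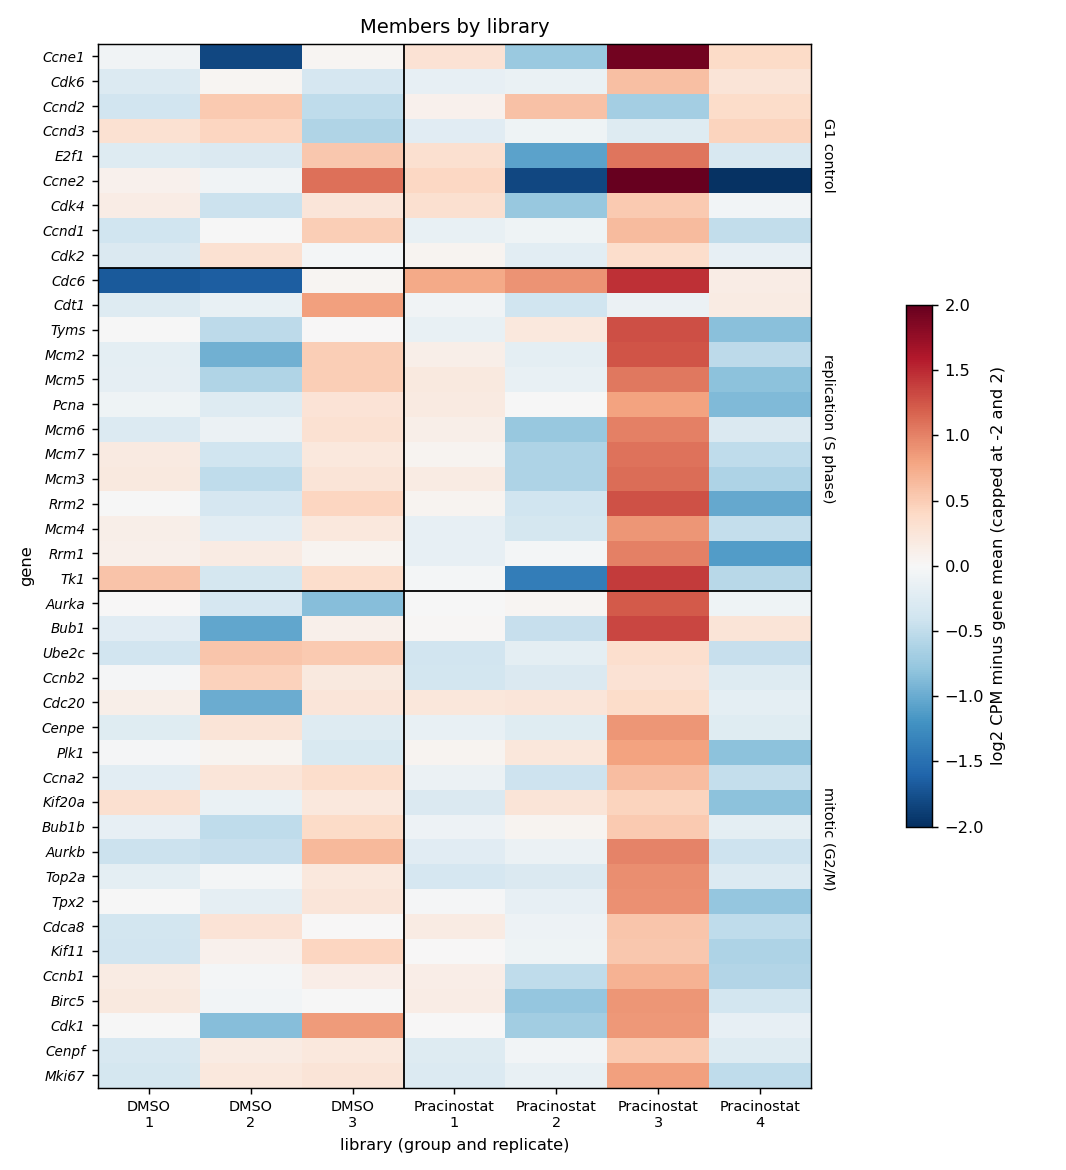
Level of each of the 42 members (rows, by role and then by p) in each of the 7 libraries (columns), as log2 CPM minus the gene's mean, with the colour scale capped at -2 and 2. The column of Pracinostat replicate 3 is red for 39 of 42 members.

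The members' promoters are shown because replication and mitotic genes varied together over the libraries and carry known, different control elements. RefSeq windows of 300 bases (250 before and 50 after the start, build GRCm38.p6) were matched by symbol for 34 of the 42 members. Motifs were searched on both strands, with the first listed window for genes with several. The cell cycle homology region (CHR, TTTGAA or TTCGAA), which the DREAM complex binds, was in 13 of 16 mitotic windows (81.2%), 2 of 12 replication windows (16.7%) and 0 of 6 G1 windows. It was in 19.2% of all 32851 promoter windows. The E2F motif (TTCGCGC or TTGGCGC) was in 5 of 12 replication windows (41.7%), 3 of 16 mitotic windows (18.8%) and 0 of 6 G1 windows, and in 3.89% of all windows. CCAAT, the motif of NF-Y, was in 15 of 16 mitotic windows (93.8%), 8 of 12 replication windows (66.7%) and 1 of 6 G1 windows (16.7%), and in 37.4% of all windows. The reverse complement of TTGGCGC ends in CCAA and so can overlap CCAAT. A match is a description of the letters and not a binding site. Stretches upstream of the start, with the motif in capitals, are given 5′ to 3′ on the gene's strand. The first 4, from mitotic genes, have a CHR motif close to the start. The last 2, from genes of the MCM helicase, have overlapping E2F motifs.
Cdk1, chr10:69352913-69352954, minus strand: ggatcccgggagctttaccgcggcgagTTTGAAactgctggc
Cdc20, chr4:118437344-118437388, minus strand: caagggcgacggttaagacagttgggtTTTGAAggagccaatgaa
Top2a, chr11:99024190-99024239, minus strand: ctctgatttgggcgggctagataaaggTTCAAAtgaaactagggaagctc
Kif11, chr19:37376336-37376381, plus strand: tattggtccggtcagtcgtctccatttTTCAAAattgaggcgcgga
Mcm6, chr1:128359715-128359775, minus strand: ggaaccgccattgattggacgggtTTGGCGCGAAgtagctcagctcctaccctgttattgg
Mcm5, chr8:75109333-75109393, plus strand: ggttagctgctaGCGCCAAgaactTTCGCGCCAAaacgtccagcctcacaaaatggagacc

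In Top2a and Kif11 the match is on the opposite strand, as TTCAAA. The mitotic genes with a CHR match included Ube2c and Ccnb2, which were not highest in Pracinostat replicate 3. Mki67 held both kinds of match, with the nearer CHR letters 93 bases and E2F letters 61 bases before its start:
Mki67, CHR, chr7:135716445-135716504, minus strand: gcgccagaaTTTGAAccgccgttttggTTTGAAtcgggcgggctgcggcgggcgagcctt
Mki67, E2F, chr7:135716413-135716473, minus strand: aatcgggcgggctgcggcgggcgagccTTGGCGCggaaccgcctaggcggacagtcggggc

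Among the 9 genes of G1 control, 7 had positive fold changes and the median was 0.16. The D cyclins, which couple growth signals to CDK4 and CDK6, did not share 1 pattern. Ccnd1 (cyclin D1) stood at 57, 74.2 and 105.6 CPM in the DMSO libraries and at 67.3, 70.8, 116.1 and 53.4 CPM in the Pracinostat libraries. The groups overlapped almost fully, with replicate 3 highest in each, and the log2 fold change was -0.04 ± 0.27 (standard error; 95% confidence interval -0.62 to 0.55). Ccnd2 (cyclin D2) stood at 33.8, 63.1 and 31 CPM with DMSO and at 46.5, 66.1, 27.2 and 56.5 CPM with Pracinostat. It ran opposite to Ccnd1, with replicate 3 lowest in each group, and its log2 fold change was 0.20 ± 0.32. Ccnd3 (cyclin D3) stood at 72.3, 78.6 and 38.3 CPM with DMSO and at 49.6, 54.8, 48.5 and 79.6 CPM with Pracinostat, a log2 fold change of -0.12 ± 0.26 that is 0.07 without DMSO replicate 2.

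Of the G1 kinases Cdk4, Cdk6 and Cdk2, Cdk6 had the smallest p. It stood at 54.6, 68.3 and 52.6 CPM with DMSO and at 58.9, 60.8, 100.6 and 79.5 CPM with Pracinostat. The groups overlapped, and the log2 fold change was 0.36 ± 0.22 (95% interval -0.11 to 0.83), or 0.18 ± 0.21 without Pracinostat replicate 3. Cdk4 was at 0.07 ± 0.28 and Cdk2, the partner of cyclin E, at 0.01 ± 0.27 on the log2 scale.

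Cyclin E and E2F1 act at the step into S phase. Ccne1 (cyclin E1) stood at 5.66, 1.68 and 6.12 CPM with DMSO and at 7.23, 3.53, 22.6 and 7.74 CPM with Pracinostat. Pracinostat replicate 3 was far above the other libraries, and the log2 fold change of 1.19 ± 0.65 became 0.45 ± 0.68 without it. Ccne2 (cyclin E2) stood at 5.27, 4.72 and 10.6 CPM with DMSO and at 6.61, 1.4, 23.9 and 1.26 CPM with Pracinostat, the widest range of the members relative to its mean. Its log2 fold change was 0.27 ± 0.94, and -1.16 ± 0.78 without Pracinostat replicate 3. E2f1, the activating transcription factor, stood at 15.4, 15.1 and 26.9 CPM with DMSO and at 23.2, 8.83, 38.8 and 14.8 CPM with Pracinostat. Both replicate 3 libraries were again highest in their groups, and the log2 fold change of 0.16 ± 0.44 was -0.30 ± 0.40 without the treated library.

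Among the 13 genes of replication, 11 had positive fold changes and the median was 0.17. With Pracinostat replicate 3 left out, 1 of the 13 was positive and the median was -0.31. Cdc6, which with Cdt1 loads the MCM helicase at origins, was that gene. It stood at 1.97, 2 and 6.44 CPM with DMSO and at 10.6, 11.6, 17.3 and 6.96 CPM with Pracinostat. All 4 treated libraries were above all 3 controls, though the lowest treated and the highest control library nearly met. The log2 fold change was 1.74 ± 0.56 (95% interval 0.54 to 2.94), with an unadjusted p of 0.00763 and an adjusted p of 1 by edgeR. Its counts were low, at 25 to 262 per library. Without Pracinostat replicate 3 the log2 fold change was 1.48 ± 0.61 (unadjusted p = 0.0298 by edgeR).

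Cdt1, the other loading factor, did not follow Cdc6. It stood at 34.5, 37.5 and 73 CPM with DMSO and at 39.7, 31.5, 38.2 and 46.3 CPM with Pracinostat. DMSO replicate 3 alone was high, and the log2 fold change of -0.31 ± 0.27 was 0.11 ± 0.26 without it. It was the only replication gene that was not highest in Pracinostat replicate 3.

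The 6 subunits of the MCM helicase varied together. Mcm2 stood at 46.5, 27.4 and 75.4 CPM with DMSO and at 57.9, 46.8, 128.2 and 37.1 CPM with Pracinostat. Its log2 fold change was 0.44 ± 0.50 (95% interval -0.71 to 1.59), and -0.08 ± 0.32 without Pracinostat replicate 3. Mcm3, Mcm4, Mcm5, Mcm6 and Mcm7 had log2 fold changes of 0.18 ± 0.45, 0.03 ± 0.30, 0.25 ± 0.41, 0.18 ± 0.38 and 0.15 ± 0.39. Without Pracinostat replicate 3 these were -0.33 ± 0.26, -0.38 ± 0.21, -0.18 ± 0.32, -0.26 ± 0.23 and -0.35 ± 0.26, so that all 6 subunits were then negative. In that library the subunits stood at 2 to 2.64 times the mean of the other 6 libraries.

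Pcna, the sliding clamp of the polymerases, stood at 94.1, 83.5 and 120.8 CPM with DMSO and at 113.6, 99.4, 175.9 and 54.5 CPM with Pracinostat. The treated libraries thus held both the highest and the lowest level, and the log2 fold change was 0.16 ± 0.33. The table also lists a processed copy, Pcna-ps2, with 29 to 310 counts, whose reads can be shared with Pcna.

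Genes of nucleotide supply had the same shape. Rrm2, the regulated subunit of ribonucleotide reductase, stood at 31.1, 25 and 42.6 CPM with DMSO and at 32.6, 24, 76.1 and 15.5 CPM with Pracinostat. Its log2 fold change was 0.17 ± 0.49, and that of the large subunit Rrm1 was 0.01 ± 0.39. Tyms (thymidylate synthase) stood at 12.7, 8.88 and 12.8 CPM with DMSO and at 11.5, 14.7, 31.1 and 7.16 CPM with Pracinostat, a log2 fold change of 0.50 ± 0.45. Tk1 (thymidine kinase) was at -0.02 ± 0.57, and at -0.81 ± 0.41 without Pracinostat replicate 3.

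**Figure D3:**
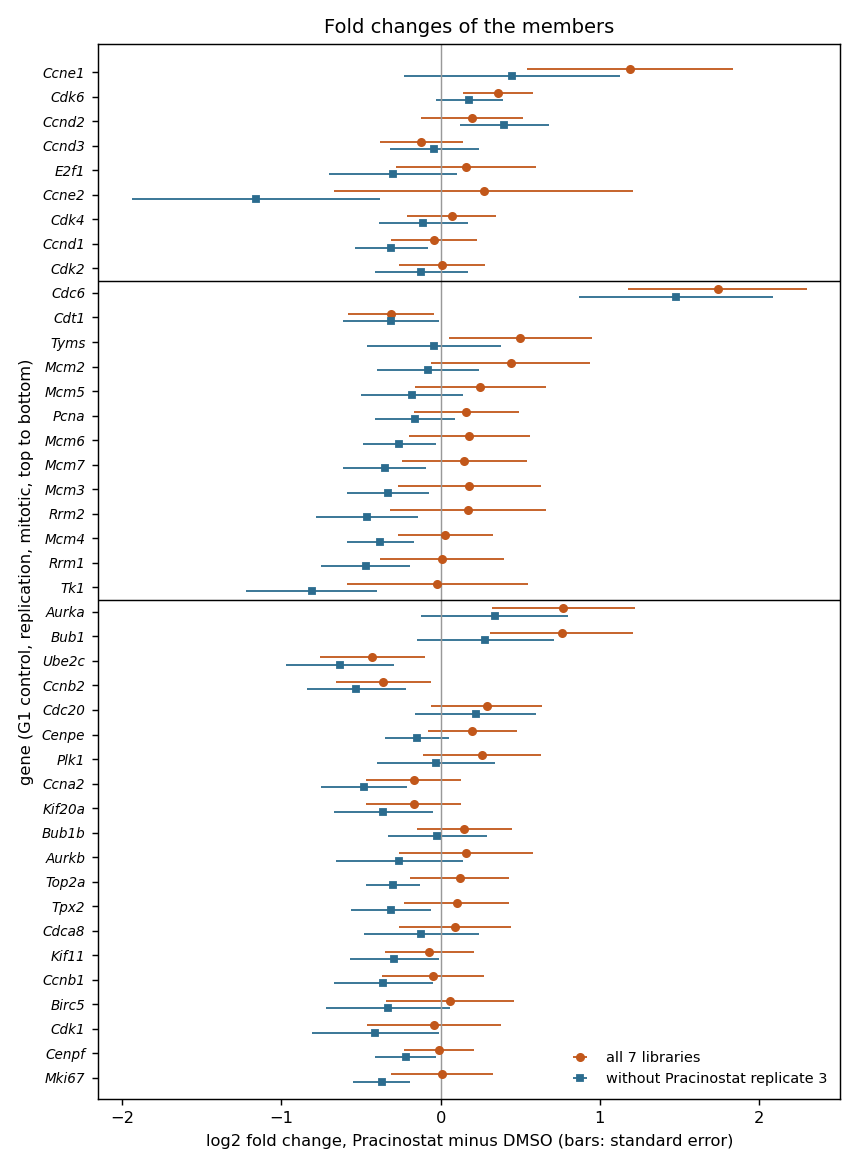
Log2 fold change of each member, Pracinostat minus DMSO, with bars of 1 standard error, in all 7 libraries (orange circles) and without Pracinostat replicate 3 (blue squares). In all libraries 30 of 42 lie to the right of 0, and without that library 7 do.

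Of the 20 mitotic genes, 12 were on the positive side (median 0.07). When Pracinostat replicate 3 was left out, 3 were positive and the median was -0.30. Those 3 were Aurka, Bub1 and Cdc20. Mki67, the proliferation marker Ki-67 that coats mitotic chromosomes, stood at 704.2, 1044 and 1077 CPM with DMSO and at 746, 809.9, 1593 and 631.1 CPM with Pracinostat. Apart from replicate 3, the treated libraries lay below the middle of the control range. The log2 fold change was 0.01 ± 0.32 (95% interval -0.72 to 0.73), which does not exclude a change of 1.5-fold either way, and -0.37 ± 0.18 without that library (unadjusted p = 0.0601 by edgeR).

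Top2a, the topoisomerase that untangles sister chromatids, stood at 113, 126 and 149.2 CPM with DMSO and at 102.5, 105.3, 247.4 and 106.7 CPM with Pracinostat. Here 3 treated libraries lay below every control and the fourth lay above every control. The log2 fold change was 0.12 ± 0.31, and -0.30 ± 0.17 without replicate 3.

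Cdk1 is the kinase that drives entry into mitosis. It stood at 20.8, 11.7 and 37.9 CPM with DMSO and at 21.3, 13, 38.3 and 18.8 CPM with Pracinostat, with nearly the same range in both groups (log2 fold change -0.04 ± 0.42). Ccnb1, its partner cyclin B1, stood at 25.8, 22.2 and 25.1 CPM with DMSO and at 25.3, 16.2, 37 and 15.4 CPM with Pracinostat (-0.05 ± 0.32). Ccnb2, cyclin B2, stood at 18.1, 25.3 and 21 CPM with DMSO and at 14.2, 15, 22.4 and 15.3 CPM with Pracinostat (-0.36 ± 0.30). For Ccnb2, 3 treated libraries were below all controls. Ccna2 (cyclin A2) was at -0.17 ± 0.30.

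Aurka and Bub1 had the highest fold changes of the mitotic genes. Aurka, the Aurora kinase of the centrosome, stood at 9.36, 7.36 and 5.15 CPM with DMSO and at 9.27, 9.62, 21.8 and 8.8 CPM with Pracinostat. The treated libraries other than replicate 3 met the top of the control range, and the log2 fold change was 0.77 ± 0.45 (95% interval -0.21 to 1.74), or 0.34 ± 0.46 without replicate 3. Bub1, a checkpoint kinase at the kinetochore, stood at 10.5, 5.92 and 13.1 CPM with DMSO and at 12.4, 8.89, 31 and 14.6 CPM with Pracinostat (0.76 ± 0.45, or 0.28 ± 0.43 without replicate 3). Its relative Bub1b was at 0.15 ± 0.30, and the mitotic kinase Plk1 at 0.26 ± 0.37. Aurkb, Birc5 (survivin) and Cdca8 (borealin), which belong to the chromosomal passenger complex, were at 0.16 ± 0.42, 0.06 ± 0.40 and 0.09 ± 0.35.

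The anaphase-promoting complex ends mitosis by marking cyclins for destruction. Ube2c, its ubiquitin-conjugating enzyme, stood at 13.8, 26.3 and 25.8 CPM with DMSO and at 13.8, 15.8, 22.7 and 13.1 CPM with Pracinostat. It had the lowest fold change of the members (-0.43 ± 0.33), and the groups overlapped. Its activator Cdc20 was at 0.29 ± 0.35. In all libraries, spindle motors and their partners were near 0. Kif11 was at -0.07 ± 0.28, Kif20a at -0.17 ± 0.30, Tpx2 at 0.10 ± 0.33, Cenpe at 0.20 ± 0.28 and Cenpf at -0.01 ± 0.22. Without Pracinostat replicate 3 these were -0.29 ± 0.28, -0.36 ± 0.31, -0.31 ± 0.25, -0.15 ± 0.20 and -0.22 ± 0.19, all negative.

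Lists of other cell cycle genes were read in the same fits. Of 54 other replication genes, 39 had positive fold changes (median 0.19), 38 were highest in Pracinostat replicate 3, and 0 passed. Over all genes tested, 52.3% were positive and 16.9% were highest in Pracinostat replicate 3. With that library left out, 15 of the 54 were positive and the median was -0.18. At an unadjusted p under 0.05, 1 was higher (2.81% of all genes) and 0 were lower (1.37%) in all libraries. That gene was Mcm10, a replisome factor, at 18, 16.6 and 10.6 CPM with DMSO and at 26.4, 17.5, 47.1 and 19.6 CPM with Pracinostat (0.88 ± 0.37). Its fold change was 0.49 ± 0.34 without Pracinostat replicate 3 and 0.68 ± 0.40 without DMSO replicate 3, and in both fits its unadjusted p was above 0.05. Rfc1, of the clamp loader, was at 0.34 ± 0.22. On the negative side were Gins4, of the replicative helicase (-0.61 ± 0.37), and the origin subunit Orc3 (-0.25 ± 0.32).

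Of 66 other mitotic genes, 43 were positive (52.3% of all genes), with a median of 0.11. Among the 66, 48 were highest in Pracinostat replicate 3 (16.9% of all genes), and 0 passed. Leaving that library out gave 19 of 66 positive and a median of -0.20. In all libraries 1 was higher (2.81% of all genes) and 0 were lower (1.37%) at an unadjusted p under 0.05. It was Cdc25c, the phosphatase that activates CDK1, at 1.42, 0.64 and 0.387 CPM with DMSO and at 1.3, 2.37, 7.14 and 4.84 CPM with Pracinostat (2.26 ± 1.03). It was 1.80 ± 1.33 without Pracinostat replicate 3, and its unadjusted p was above 0.05 without that library, Pracinostat replicate 4, or DMSO replicate 2 or 3. With Pracinostat replicate 3 left out, this list had 0 higher (2.63% of all genes) and 3 lower (1.47% of all genes) at that level. The 3 were Sgo2a, Ncapg (-1.28 ± 0.36) and Kif15 (-0.68 ± 0.30). In the same fit the other replication genes had 0 higher and 1 lower, the DNA ligase Lig1 (-0.76 ± 0.27), and 0 of these genes passed the test. Ncapg, Kif15 and Lig1 were named after their values were seen. Sgo2a, a protector of cohesion, was at -1.03 ± 0.34 in that fit and at -0.45 ± 0.42 in all libraries. Lmnb1 (lamin B1) was at 0.33 ± 0.18 and Psrc1 at -0.60 ± 0.57.

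Scores of upstream regulators spanned a narrower range over the libraries (-0.29 to 0.42). Of 19 genes of the RB, E2F and DREAM group, 11 were positive (median 0.04), 0 passed and 0 had an unadjusted p under 0.05. With Pracinostat replicate 3 left out, 8 were positive (median -0.11) and 1 was lower at that level (1.47% of all genes). It was the repressor E2f8 (-0.80 ± 0.31), also named after its values were seen. In all libraries the smallest p values were for Lin54, a DNA-binding subunit of DREAM (0.34 ± 0.21), and Rb1, the retinoblastoma gene (0.24 ± 0.19). On the negative side were Tfdp2, the dimer partner of E2F (-0.37 ± 0.35), and the repressor E2f4 (-0.18 ± 0.19). The median ratio of Pracinostat replicate 3 to the other 6 libraries was 1.22 in this group, from 0.519 for Rbl2 to 2.76 for E2f7. That library held the highest CPM for 10 of the 19 genes, against 16.9% of all genes tested.

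The CDK inhibitors restrain the cyclin-dependent kinases. Of 7 listed, 6 were tested, 3 of these were positive (median 0.04) and 0 passed. At an unadjusted p under 0.05, 1 was higher (2.81% of all genes). That gene was Cdkn2d (p19), with a log2 fold change of 1.26 ± 0.56. It stood at 8.81, 1.52 and 3.93 CPM with DMSO and at 10, 8.83, 11.2 and 15.5 CPM with Pracinostat. Its 4 treated libraries were all above the controls, as for 3.51% of all genes, the closest pair being 8.83 and 8.81 CPM. Its unadjusted p was above 0.05 without DMSO replicate 2 or 3, or without Pracinostat replicate 1, 3 or 4. Cdkn1a (p21) stood at 94.5, 112.6 and 117.7 CPM with DMSO and at 151, 154.2, 69 and 109.2 CPM with Pracinostat. Its log2 fold change was 0.16 ± 0.24, or 0.35 ± 0.18 without Pracinostat replicate 3. Cdkn1b (p27) was at -0.29 ± 0.24, or -0.15 ± 0.23 without that library. Both were lowest in Pracinostat replicate 3, and the median ratio of that library to the other 6 was 0.581 over the 6 inhibitors tested. The score of the list was 0.12, -0.47 and -0.60 with DMSO and 0.50, 0.03, 0.15 and 0.27 with Pracinostat, with means of -0.32 ± 0.39 (SD, n = 3) and 0.24 ± 0.20 (SD, n = 4). The groups overlapped, and the difference was 0.55, or 0.58 without Pracinostat replicate 3. This score weighted all 7 genes alike, among them Cdkn2a, which did not pass the filter on low counts. Cdkn2a stood at 0.0786, 0.56 and 0.0644 CPM with DMSO and at 4.36, 0, 4.56 and 0.484 CPM with Pracinostat. Summed over the 7 genes, the level was 190.1 to 201.7 CPM with DMSO and 144.5 to 244.6 CPM with Pracinostat. Cdkn2b was at 0 to 5.27 CPM (-0.93 ± 1.56), and its direction depended on the fit.

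The labelled cell type was checked against its markers, and Pracinostat replicate 3 was compared on them. All 14 macrophage and microglia markers were detected, and their summed level was 9932 to 11934 CPM with DMSO and 10978 to 14543 CPM with Pracinostat. The highest sum was in Pracinostat replicate 3, which held the highest level of 7 of the 14 and the lowest of 3, Cd68, Mrc1 and Ms4a7 (16.9% and 14.4% of all genes were highest and lowest there). Tmem119, a marker of resident microglia, stood at 379.8 CPM in that library against 140.9 to 272.3 CPM in the other 6. P2ry12, of the same list, was not set apart there, at 302.5 CPM against 181.5 to 305.3 CPM in the other 6. Mrc1 (CD206), a marker of border-associated and alternatively activated macrophages, stood at 45.2 CPM against 261.6 to 409.8 CPM. Ms4a7, a marker of macrophages other than microglia, stood at 14.9 CPM against 63.4 to 112.6 CPM. The part of these differences in the members' levels was not tested.

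**Figure D4:**
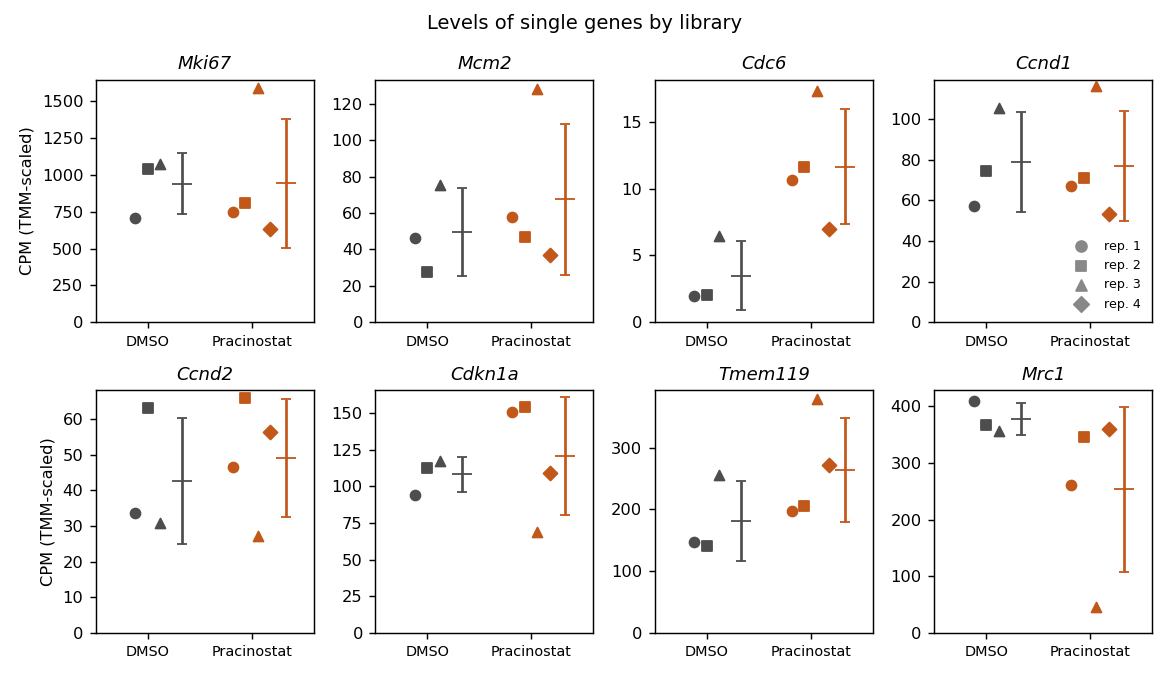
CPM (TMM-scaled, axes from 0) of 6 cell cycle genes and of the macrophage markers Tmem119 and Mrc1 in the 3 DMSO (grey) and 4 Pracinostat (orange) libraries, with symbols for replicate numbers and the mean ± SD beside them. In Pracinostat replicate 3 (orange triangle) Mki67, Mcm2 and Tmem119 are highest, and Ccnd2, Cdkn1a and Mrc1 are lowest.

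Markers of other cell types were summed in the same way, and each list is compared between libraries and not with other lists. The myeloid progenitor list (8 of 8 in the table) ran from 123.4 to 161.5 CPM with DMSO and from 186.2 to 249.2 CPM with Pracinostat. The highest sum was in Pracinostat replicate 3, where 5 of the 8 markers were at 0 (Mpo, Elane, Ctsg, Prtn3 and Ms4a3). The same 5 were at 0 in DMSO replicate 2. Cd34, also a marker of endothelial cells, stood at 84.4, 76.2 and 98.6 CPM with DMSO and at 115.7, 149.3, 228.4 and 136.2 CPM with Pracinostat. All treated libraries were above the controls (as for 3.51% of all genes), with replicate 3 highest (0.86 ± 0.22, unadjusted p = 0.00151 and adjusted p = 0.924 by edgeR). Kit and Flt3 stood at 12.1 and 8.66 CPM in that library, against 10.8 to 44.6 and 12.3 to 45.4 CPM in the other 6. Neutrophil markers (10 of 10) ran from 279.4 to 582.2 CPM and from 366.4 to 602.4 CPM, with 6 of the 10 at 0 in Pracinostat replicate 3. Of these, Ly6g, Retnlg, Camp, Ltf and Ngp were also at 0 in DMSO replicate 3. Csf3r made most of each sum, at 271.2 to 411.2 CPM, while S100a9 ran from 0 to 49.4 CPM and Ngp from 0 to 100 CPM. Neural progenitor markers (5 of 6) ran from 27 to 34.8 CPM and from 20 to 59.9 CPM, the highest sum being in Pracinostat replicate 3. Endothelial and mural markers (10 of 10) ran from 277.9 to 358.1 CPM and from 99.3 to 420 CPM, and oligodendrocyte and precursor markers (11 of 11) from 399.2 to 423.7 CPM and from 445 to 1291 CPM. Dendritic cell markers (9 of 9) ran from 155.2 to 188.4 CPM and from 151.5 to 269.2 CPM, and astrocyte markers (7 of 7) from 114.8 to 156.3 CPM and from 92.6 to 158.7 CPM. Fibroblast markers (6 of 6) reached 1060 CPM in DMSO replicate 2 and 698.2 CPM in Pracinostat replicate 1, and were at 19.5 to 61.9 CPM in the other 5 libraries. Neuron (8 of 8), erythroid (4 of 7) and lymphocyte (6 of 8) markers summed to at most 19.8, 1.81 and 1.49 CPM. Their part in the members' levels was not tested.

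Depth ran from 10142753 to 16950597 counts per library, with 16319 to 19244 genes above 0. Each member had at least 13 counts in every library. The labels do not say whether human tumour reads were removed before counting.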

How the data were processed

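The labels' protocols describe RNA from sorted CD11b+ cells (1 ng input), a stranded total RNA kit and paired reads of 150 bases over 2 lanes. Tools listed, with no role or version, in the submitters' processing notes are STAR, RSEM, DESeq2, Trim Galore, MultiQC and FastQC, and the build is GRCm39. The authors deposited expected counts per gene symbol, as whole numbers and not normalized. The annotation and the strand setting were not stated, and overlapping and near-identical genes are therefore uncertain. Promoter coordinates are RefSeq's own, on GRCm38.p6, and were not mixed with the files' build.

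Pracinostat was compared with DMSO by edgeR 4.0.16 (R 4.3.3): TMM scaling, filterByExpr (minimum count 10), robust quasi-likelihood fitting, two-sided tests, with p adjusted by Benjamini-Hochberg over all genes tested (threshold 0.05). CPM use TMM-scaled library sizes, and scores use log2 CPM with a prior count of 2. Intervals are at 95%. The method was tested on simulated counts. Chi-square comparison found no duplicate libraries. Alternatives were other scalings and filters, DESeq2 1.42.0, limma-voom (limma 3.58.1), leaving out each library, the prior count and the replicate number as a block.

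The members and lists were chosen with earlier results of these data known. Members given sample by sample were the 4 with the smallest p in each role group and 10 fixed genes (Mki67, Top2a, Cdk1, Ccnb1, Pcna, Mcm2, Rrm2, Ccnd1, Ccne1 and E2f1), to which Ccne2 was added, and the marker Cd34 singled out, after their values were seen. Of each other list, up to 2 positive and 2 negative genes of smallest p were named, and Cdkn1a. No gene lengths were used, so levels were not compared between genes.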

Additional observations from a re-analysis of the deposited data

Results flagged for a closer look

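In the 4 Pracinostat libraries, 80 values were screened for 1 library lying far from the rest (its distance to the next, divided by the range, above Dixon's 95% critical value), and 10 met this. Chance marks about 1 in 20 such groups, and the values are not independent. The DMSO group, of 3, was too small to screen.

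Pracinostat replicate 3 was the distant library for 8 of the 10, always as the highest. Top2a stood at 247.4 CPM, against 102.5 to 106.7 CPM in the other Pracinostat libraries and 113 to 149.2 CPM with DMSO. Cenpe, a kinetochore motor, stood at 132.2 CPM, against 60.6 to 64.8 CPM and 60.5 to 85.9 CPM. Aurka stood at 21.8 CPM, against 8.8 to 9.62 CPM and 5.15 to 9.36 CPM, and Aurkb at 28.8 CPM, against 10.8 to 13.2 CPM and 10.4 to 22.6 CPM. Ccnb2 stood at 22.4 CPM, against 14.2 to 15.3 CPM, though DMSO libraries reached 25.3 CPM. Mcm4 stood at 109.5 CPM, against 42.6 to 53.2 CPM and 51.3 to 69.4 CPM. The mitotic genes summed to 2690 CPM, against 1142 to 1392 CPM and 1294 to 1833 CPM. Mki67 alone held 1593 CPM of that library's sum. Without Mki67 the mitotic genes, not screened in this form, summed to 1097 CPM, against 510.7 to 592.3 CPM and 589.8 to 756.3 CPM. The macrophage and microglia markers summed to 14543 CPM, against 10978 to 11513 CPM and 9932 to 11934 CPM.

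Pracinostat replicate 1 was the distant library for the other two. Its fibroblast markers summed to 698.2 CPM, against 19.5 to 40.4 CPM, with 1060 CPM in DMSO replicate 2. Its Psrc1 stood at 6.41 CPM, against 3.38 to 3.7 CPM and 3.92 to 8.88 CPM with DMSO.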

How the results depend on the processing

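The count of members called was 0 in every alternative run. The count over all genes was 63 without the low-count filter, 27 with DESeq2, 4 with the replicate block (replicates 1 to 3) and 0 to 3 when 1 library was left out, the 3 being without DMSO replicate 3. Members at an unadjusted p under 0.05 numbered 2 without the filter (Cdc6 and Ccne1), 2 with the replicate block (Cdc6, and Mcm2 at 0.60 ± 0.21), 2 without both fibroblast-rich libraries, DMSO replicate 2 and Pracinostat replicate 1 (Cdc6 and Cdk6, an alternative chosen after seeing the data) and 1 to 2 when 1 library was left out. Other cell cycle genes at that level numbered 3, and 2 to 5 when 1 library was left out, the 5 being without Pracinostat replicate 3 or 4. Positive members numbered 7 to 37 over those fits, and 7 only without Pracinostat replicate 3. Labels do not say that equal replicate numbers mark pairs. Pairing was therefore not assumed, and the replicate block was run as an alternative. Deviations of same-numbered libraries correlated at 0.0715, 0.00901 and 0.144, and those of other pairs at -0.105 to 0.0668. For each of Pracinostat replicates 1 to 3, the same-numbered DMSO library had the highest correlation, so these values do not settle the question. Score differences with 1 library left out ran from -0.12 to 0.27 for G1 control, -0.17 to 0.35 for replication and -0.20 to 0.16 for mitosis.

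Of 610 single-gene alternatives 576 kept their direction, and 34, over 13 genes, did not. All of them refit some or all of the same libraries, so a kept direction is not an independent check. With 1 library left out, log2 fold changes ran from -0.38 to 0.07 for Ccnd3, -0.50 to 0.11 for Cdt1, -0.04 to 0.72 for Tyms, -0.08 to 0.87 for Mcm2, -0.37 to 0.14 for Mki67, -0.30 to 0.25 for Top2a, -0.41 to 0.49 for Cdk1, -0.36 to 0.09 for Ccnb1, -0.16 to 0.37 for Pcna, -0.46 to 0.41 for Rrm2, -0.31 to 0.23 for Ccnd1, -0.30 to 0.49 for E2f1 and -1.51 to 2.09 for Cdkn2b. Without both fibroblast-rich libraries Ccnd3 was at 0.15 and E2f1 at -0.02. With the replicate block Cdk1 was at 0.05, Ccnb1 at 0.01, Ccnd1 at 0.09 and Cdkn2b at 0.20. With limma-voom Mki67 was at -0.06, Rrm2 at -0.02, E2f1 at -0.02 and Cdkn2b at 0.88. Mki67 was at -0.01 with RLE scaling, library totals, the stricter filter and DESeq2, and at -0.00 with upper quartile scaling. The cause of these shifts was not tested.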
